A study of Sus scrofa with 6 samples.

Results

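Immediate early genes and stress-induced transcription factors, with their partner families, were followed in the longissimus muscle (the long back muscle) of pigs, Sus scrofa. The members were the gene records whose deposited symbol belongs to the FOS, JUN, MAF, ATF, EGR, NR4A, MYC, IER, KLF, DUSP, BTG, GADD45 or ZFP36 families, and they numbered 36 of 7661 records, with 35 distinct symbols. Muscle mRNA was sequenced in 6 libraries, 3 from the high and 3 from the low intramuscular fat group, which the study design describes as 3 pigs each. The sources used here give no strain, sex, age or treatment for the pigs, so the p-values measure the spread between these libraries, and the groups differ by label in fat content alone. The deposited CPM (the read count scaled to a common library total) was above 10 in at least 3 libraries for every record of the table. It was above 10 in all 6 libraries for 31 members and in 3 to 5 libraries for the other 5 members (DUSP14, FOSL1, GADD45B, KLF5 and KLF7). In 0 members was it above 10 in exactly 3 libraries that all belonged to 1 group. KLF5 met the minimum through the high group, since low library 3 was the only low library above 10. The IER family has no record under its symbols, and its genes and other relatives without such a record are not analysed here, except where a reference name table matched them and the text says so.

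Immediate early genes are transcribed within minutes of a stimulus without new protein synthesis. Growth factor, contraction, calcium and stress signals reach them through the ERK, p38 and JNK kinases, through serum response factor and through CREB. Their products then take over the next step: FOS, JUN and ATF proteins pair as leucine zipper dimers on DNA, EGR, KLF and NR4A proteins bind DNA through zinc fingers, DUSP phosphatases switch the kinases off, GADD45 and BTG proteins restrain growth, and ZFP36 proteins speed the decay of AU-rich messenger RNAs. In skeletal muscle many of them respond to exercise, fasting and handling. The label of the set names transcription factors, but 16 of the 36 records (10 DUSP, 2 GADD45, 2 BTG and 2 ZFP36) encode other proteins.

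Library totals ran from 25371989 to 34813172 reads, and the lowest count of any member in any library was 179 reads (KLF7, low library 3). All levels below are CPM after TMM scaling, which is not divided by transcript length, so levels are compared between libraries and not between genes. Of 7 fixed skeletal muscle fibre markers 6 had a record, with mean levels between 3046 and 25639 CPM. Of the marker records of other cells 1 passed the threshold in edgeR's quasi-likelihood test, the adipocyte gene PLIN1 (adjusted p = 0.0409). DESeq2 and edgeR's exact test each called all 3 adipocyte records, 5 of 9 fibroblast and progenitor records, MYH11 and the record listed as MYF5. They called 0 records of the endothelial, macrophage, lymphocyte and erythrocyte lists. Of all records DESeq2 called 6.77% and the exact test 4.12%, and limma-voom called 0 marker records. The adipocyte records, which cover 3 of 7 fixed markers, all had a higher mean in the high group. Their summed level was 53.1 to 116 CPM in the high and 14.3 to 19.0 CPM in the low libraries. All 9 fibroblast and progenitor records were higher too, where 45.2% of all records were, with sums of 3078 to 4067 CPM against 1360 to 2782 CPM. These 9 match 6 markers, since COL1A1, COL1A2 and PDGFRA have further records, and the sums include every record. Endothelial records were higher in 4 of 6, smooth muscle and pericyte records in 3 of 7 and macrophage records in 2 of 2. PTPRC, the 1 record from the lymphocyte list (log2 fold change -0.26), and the erythrocyte record HBB (-0.22) were lower. Of the fixed markers, 2 of 7 for macrophages, 1 of 6 for lymphocytes and 1 of 3 for erythrocytes had a record. PTPRC alone gives no reading of lymphocytes as a cell type. Neutrophil markers are not analysed here. The 1 record matched to the satellite cell markers, listed as MYF5, is named MYF6 in both reference name tables. By these sources its values are those of MYF6 and give no reading of the marker MYF5. That record stood at 641, 565 and 538 CPM in the high and 272, 388 and 294 CPM in the low libraries. Its log2 fold change was 0.87 (SE 0.18, adjusted p = 0.108). In bulk tissue, fewer cells of a type and less RNA per cell cannot be told apart, and the part of other cell types in the results on the members was not tested.

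High and low libraries were compared to ask how these transcripts relate to fat content. Of the 36 members 0 passed an adjusted p of 0.05 in edgeR's quasi-likelihood test, where 11 of 7661 records did (0.144% of the table). The kinase phosphatase DUSP10, the stress factor ATF3 and the nuclear receptors NR4A1 and NR4A2 stood higher in all 3 high libraries than in any low library, together with KLF13, KLF7 and ATF6. The AP-1 subunit JUNB alone stood lower in all 3 high libraries. These 8 members (22.2%) were also the members with an unadjusted p under 0.05, against 18.5% of all records at that mark and 26.8% of all records without overlap of the groups, so their number is near the background. By direction, 7 members (19.4%) were higher at that mark, against 10.2% of all records, and 1 was lower, against 8.30%. Without overlap, 13.5% of all records were higher and 13.3% lower. The count of 0 depended on the test. DESeq2 called 4 members (DUSP10, NR4A1 and KLF13 higher, JUNB lower), where it called 6.77% of all records, edgeR's exact test called the same 4, where it called 4.12%, and limma-voom called 0, where it called 0.104%. The authors' deposited table gives the same 4 a false discovery rate under 0.05, as it does 4.12% of its records, but its p-values equal those of that exact test to within 0.000105 on the log10 scale and are no further evidence.

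**Figure D1:**
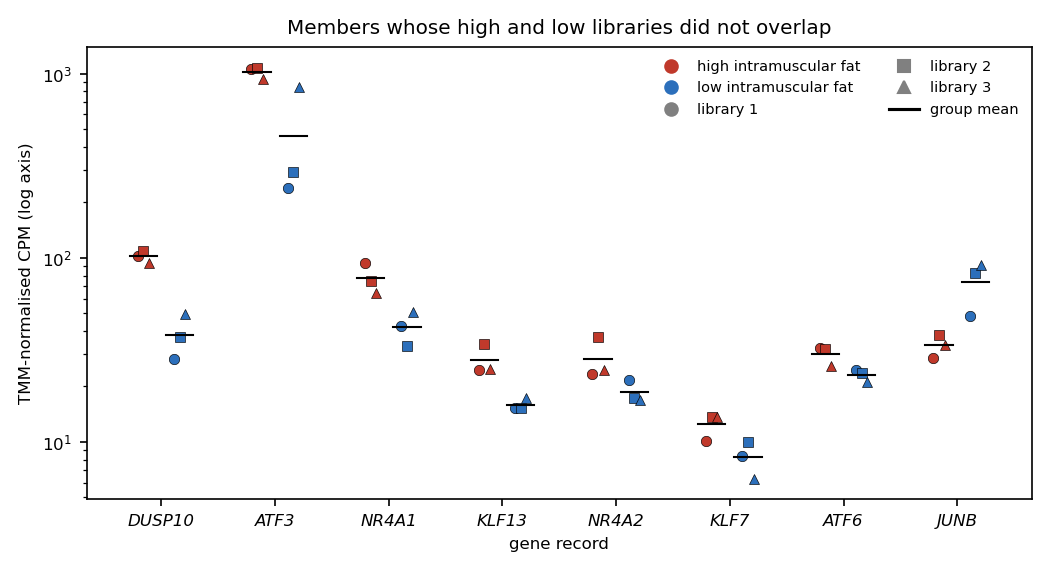
TMM-normalised CPM on a log axis in each library for the 8 members whose groups did not overlap; colours are the groups, marker shapes the library numbers and bars the group means. The 3 high libraries lie above the 3 low libraries in 7 genes and below them in JUNB, and low library 3 lies close to the high group in ATF3.

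DUSP10, a phosphatase that inactivates p38 and JNK, had the largest fold change among the 36 members. Its record (ENSSSCG00000010831, chromosome 10, 12977461 to 13015992) stood at 103, 109 and 94.1 CPM in high libraries 1 to 3 and at 28.1, 37.0 and 49.7 CPM in low libraries 1 to 3. The lowest high library was well above the highest low library. The level was 102 ± 7.56 CPM in the high and 38.3 ± 10.8 CPM in the low group (SD, n = 3 each), a 2.66-fold difference. Its log2 fold change of 1.41 (SE 0.21, adjusted p = 0.0699) missed the threshold with all libraries and passed without low library 3 (1.65, adjusted p = 0.0360). With any other single library left out it missed the threshold, at adjusted p-values from 0.0539 to 0.250. The authors' deposited table gives it a false discovery rate of 1.54e-06.

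The remaining 9 DUSP records had log2 fold changes between -0.45 and 0.16. Of the 10 in all, 7 were lower in the high group, as were 4199 of all 7661 records (family median -0.08, all records -0.04). Those 7 include DUSP14 and DUSP15, whose counts may include reads of a neighbour. DUSP1, the inducible phosphatase of ERK, p38 and JNK, stood at 294, 262 and 360 CPM in the high and 349.9, 308 and 592 CPM in the low libraries. Low library 3 was the highest and the groups overlapped (log2 fold change -0.45, SE 0.27, adjusted p = 0.39). Without that library the log2 fold change was -0.10. DUSP3, which acts on ERK and JNK, ranged from 195 to 319 CPM with a log2 fold change of -0.23. DUSP26 had -0.25, and DUSP13, which is known from testis and skeletal muscle, had -0.08. DUSP4, DUSP11, which acts on RNA, and DUSP28 lay between -0.06 and 0.16. These 6 had adjusted p-values between 0.498 and 0.965.

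Of the ATF records, ATF3 was the most variable. ATF3 is a leucine zipper factor that many stresses induce and that mostly represses transcription. Its record (ENSSSCG00000015595, chromosome 9, 143690514 to 143703906) stood at 1057, 1079 and 939.9 CPM in the high libraries and at 240.4, 294 and 847 CPM in the low libraries. The high libraries were alike, whereas low library 3 lay near them and low libraries 1 and 2 far below. Group means were 1025 ± 74.5 and 460.4 ± 336 CPM, and the fit gave 1.15 on the log2 scale (SE 0.45, adjusted p = 0.237). It was 1.95 without low library 3 (adjusted p = 0.0233) and 0.86 without low library 1 (adjusted p = 0.274).

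ATF6, a sensor of misfolded protein in the endoplasmic reticulum, differed less. It stood at 32.3, 31.8 and 25.8 CPM in the high and at 24.5, 23.7 and 21.1 CPM in the low libraries (chromosome 4, 96537111 to 96820806). Low library 1 came close to high library 3. The log2 fold change was 0.37 (SE 0.14, adjusted p = 0.231). The record spans 283696 bp, and with the trend of levels on genomic span removed in each library the value fell to 0.08. ATF4, the effector of the integrated stress response, is listed as CREB2 and is therefore no member. It stood at 1381, 1550.3 and 1703 CPM in the high and 1719.5, 1579.9 and 2433 CPM in the low libraries, or -0.31 on the log2 scale (SE 0.21, adjusted p = 0.452). Low library 3 was the highest of the 6 there.

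The NR4A orphan nuclear receptors, which exercise and adrenergic signals induce in muscle and which control genes of glucose and lipid use there, had a higher mean in the high group in each record, without passing the threshold. NR4A1 (ENSSSCG00000028326, a record of 1767 bp on scaffold GL892233.1) stood at 93.8, 74.5 and 64.4 CPM in the high and 42.7, 33.1 and 51.0 CPM in the low libraries. Its groups did not overlap, at 77.6 ± 15.0 against 42.3 ± 8.93 CPM. The log2 fold change was 0.88 (SE 0.20, adjusted p = 0.116). Neither reference name table gives this record a symbol, so its name rests on the deposited symbol alone. NR4A2 (chromosome 15, 70671007 to 70679616) stood at 23.4, 37.0 and 24.4 against 21.7, 17.3 and 16.8 CPM. Its high library 2 was the highest and low library 1 came close to the high group. The log2 fold change was 0.60 (SE 0.21, adjusted p = 0.2100), or 0.36 without high library 2. NR4A3, listed as NOR-1 and so no member, stood at 145, 415 and 201 against 97.8, 163 and 126 CPM. High library 2 was far above the others, and the groups overlapped because low library 2 exceeded high library 1 (0.97, SE 0.39, adjusted p = 0.243).

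MYC, the growth-promoting factor grouped with them, stood at 43.6, 73.0 and 26.7 CPM in the high and 18.0, 25.7 and 53.2 CPM in the low libraries. Each group held both low and high values, and the log2 fold change was 0.57 (SE 0.47, adjusted p = 0.526). EGR1, a zinc finger factor of the first response, is listed as EGR-1 and is no member either. It ranged from 97.4 to 141 CPM in the high and from 38.0 to 162 CPM in the low libraries (0.28, SE 0.45, adjusted p = 0.751). IER5 was found through both reference name tables on a record without a symbol. It stood at 16.9, 17.6 and 12.8 CPM in the high and 6.14, 13.2 and 16.2 CPM in the low libraries. The IER5 log2 fold change was 0.41 (SE 0.33, adjusted p = 0.52).

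Among AP-1 subunits JUNB stood apart from FOS. JUNB, which in mouse is known to maintain muscle mass, stood at 28.7, 38.0 and 33.8 CPM in the high libraries and at 48.1, 82.7 and 91.0 CPM in the low libraries (ENSSSCG00000013735, chromosome 2, 66505186 to 66507024). Every low library exceeded every high library, with 33.5 ± 4.65 against 73.9 ± 22.7 CPM, a level 2.21-fold higher in the low group. The log2 fold change of -1.14 (SE 0.24, adjusted p = 0.109) missed the threshold with all libraries and passed without low library 1 (-1.36, adjusted p = 0.0368). With any other single library left out it missed the threshold, at adjusted p-values from 0.149 to 0.289. The authors' deposited false discovery rate was 0.00102.

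FOS, the partner of JUN proteins, stood at 481, 811 and 507 CPM in the high and 360.2, 514 and 898 CPM in the low libraries. The spread within each group exceeded the difference between them: 599.8 ± 184 against 591 ± 277 CPM, or 0.02 on the log2 scale (SE 0.36, adjusted p = 0.978). FOSL1, a FOS relative without the same activation domain, was at 9.10 to 11.5 CPM in the high libraries and at 10.3 CPM in both low libraries 1 and 2, and rather more, 27.1 CPM, was seen in low library 3. Its log2 fold change was -0.61 (SE 0.38, adjusted p = 0.414) with that library and 0.02 without it. FOSL2, found through RefSeq on a record without a symbol, had the same shape. High libraries had 13.3 to 16.9 CPM, low libraries 1 and 2 had 12.1 and 14.3, and low library 3 had 40.5 CPM. The FOSL2 log2 fold change was -0.60 (SE 0.44, adjusted p = 0.478). MAFF, a small MAF protein that lacks an activation domain, was at 105 to 133 CPM in the high libraries while low libraries 2 and 3 had 116 and 130.2 CPM and low library 1 had 41.2 CPM. Its log2 fold change was 0.32 (SE 0.38, adjusted p = 0.659), and -0.02 without low library 1.

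**Figure D2:**
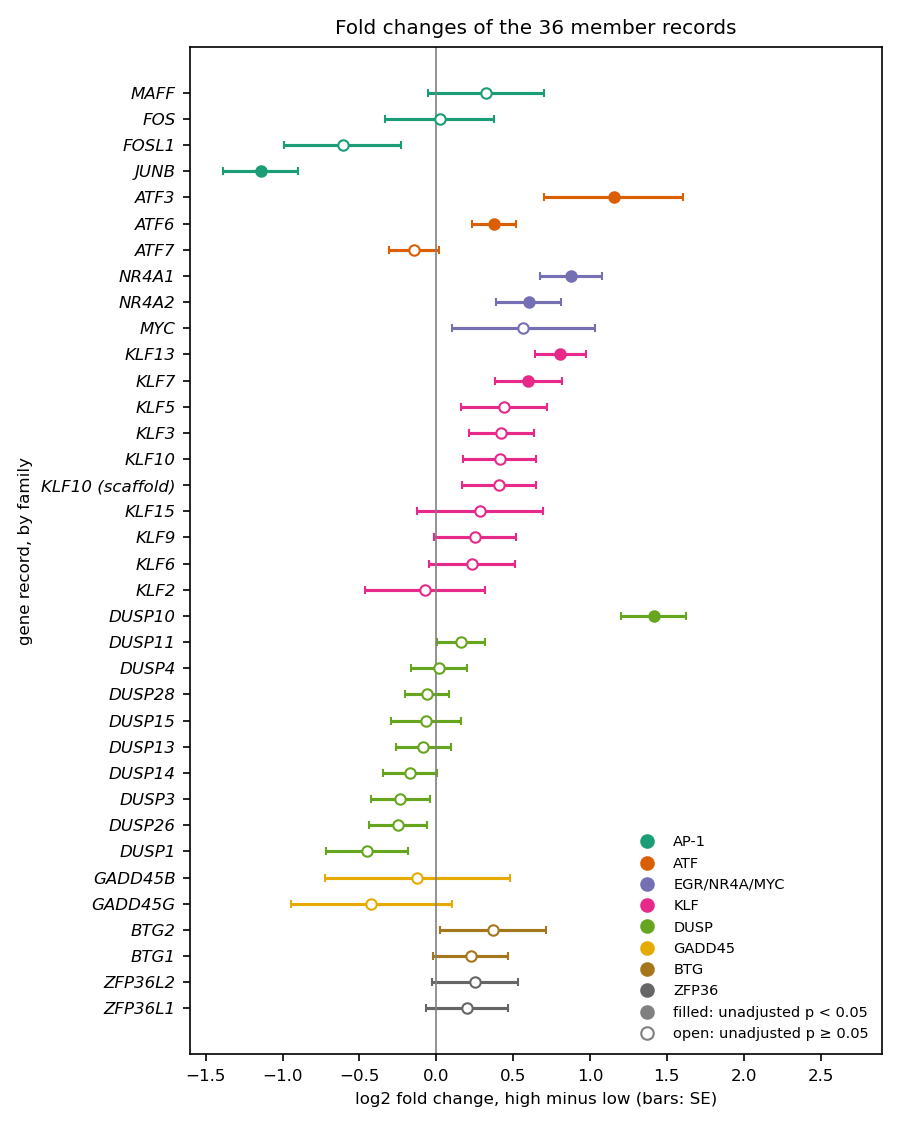
Log2 fold change (high minus low) of each of the 36 member records with its standard error, grouped and coloured by family; filled points have an unadjusted p under 0.05. DUSP10 has the highest value (1.41) and JUNB the lowest (-1.14), 9 of the 10 KLF records lie above 0, and 7 of the 10 DUSP records lie below it.

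Krüppel-like factors, which bind GC-rich promoter elements, were higher in the high group in 9 of 10 records, with KLF10 counted in 2 records. The family median was 0.41 (all records -0.04), and 0 passed the threshold. High library 3 was the highest in several KLF records, and without it KLF9 and KLF15 fell just below 0. In all, 23 of the 36 members (63.9%) were higher, against 45.2% of all records, and 13 were lower. Of the 9 records of the same families under another symbol or none, 2 of them ZFP36, 3 were higher and 6 lower. Their median was -0.18. KLF13 (ENSSSCG00000026006, chromosome 1, 159396562 to 159485685) stood at 24.6, 33.8 and 25.0 CPM in the high and 15.2, 15.2 and 17.2 CPM in the low libraries. The low libraries were nearly equal and the groups were well apart (log2 fold change 0.81, SE 0.17, adjusted p = 0.108). KLF7 stood at 10.1, 13.6 and 13.7 against 8.38, 9.98 and 6.33 CPM (chromosome 15, 121838760 to 121892429). Low library 2 almost reached high library 1. The log2 fold change was 0.60 (SE 0.22, adjusted p = 0.219).

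The other KLF members overlapped between the groups. KLF10, a factor induced by TGF-beta, has 2 records, 1 on chromosome 4 and 1 on scaffold GL893544.2. Their values were nearly equal in every library (0.41 in both, SE 0.24), and they can hold reads of the same gene. Without high library 3 they had 0.22 and 0.21. KLF15, which glucocorticoids induce in muscle, was at 29.5 CPM in high library 3 and 27.3 CPM in low library 2, and at 9.95 to 16.6 CPM in the remaining libraries. Its log2 fold change was 0.28 (SE 0.41), 0.83 without low library 2 and -0.08 without high library 3. KLF9, also a glucocorticoid target, had its highest level, 277 CPM, in high library 3, and 132 to 204 CPM elsewhere (0.25, SE 0.27). Without that library it had -0.06. KLF3 had 0.42, KLF5 0.44 and KLF6 0.23, with adjusted p-values between 0.322 and 0.671. Without high library 3, KLF3 had 0.24. The record listed as KLF2 is named KLF4 in its own description and in both reference name tables, so its value (-0.07, SE 0.39) is that of KLF4 by these sources.

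Growth arrest and RNA decay members varied mainly from library to library. GADD45B, a stress sensor that activates the p38 pathway, stood at 22.9, 46.4 and 19.3 CPM in the high and at 9.41, 29.6 and 57.7 CPM in the low libraries. Its highest level was 6.13 times its lowest, the widest range among the members, and both extremes were low libraries (-0.12, SE 0.60, adjusted p = 0.925). The log2 fold change was 0.61 without low library 3 and -0.61 without high library 2. GADD45G stood at 22.4, 27.9 and 31.5 against 13.8, 25.3 and 70.7 CPM. Low library 3 held 36.9% of the sum over the 6 libraries, the highest share of 1 library in any member, and the log2 fold change was -0.42 with it and 0.49 without it. BTG2, which recruits messenger RNA deadenylases, stood at 841, 1020.2 and 799 against 355, 706 and 1002 CPM. Low library 1 was the lowest by far, and the log2 fold change of 0.37 (SE 0.35, adjusted p = 0.583) was 0.07 without it. BTG1 had 0.22, ZFP36L1 0.20 and ZFP36L2 0.25, with adjusted p-values between 0.639 and 0.6998. ZFP36 itself, listed as TTP on 2 records with nearly equal counts, had -0.18 on both.

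Levels of these genes varied widely between libraries. In 25 of the 36 members (69.4%) the highest library exceeded the lowest more than 2-fold, against 21.3% of all records, and the median ratio of highest to lowest was 2.15 against 1.54. The median SD of log2 levels was 0.25 among high and 0.36 among low libraries, against 0.15 and 0.21 for all records. Low library 1 was the lowest of the 6 in 15 members (41.7%), against 14.4% of all records. Low library 3 was the highest in 12 members (33.3% against 24.9%) and high library 2 in 11 (30.6% against 14.6%). High library 3 was the highest in 9 (25% against 16.1%). The median fold change of the members moved with these libraries: it was 0.23 with all 6, 0.05 without low library 1 and 0.38 without low library 3. It was 0.13 without high library 2 and 0.16 without high library 3. These shares are descriptions over members that share the same 6 libraries.

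**Figure D3:**
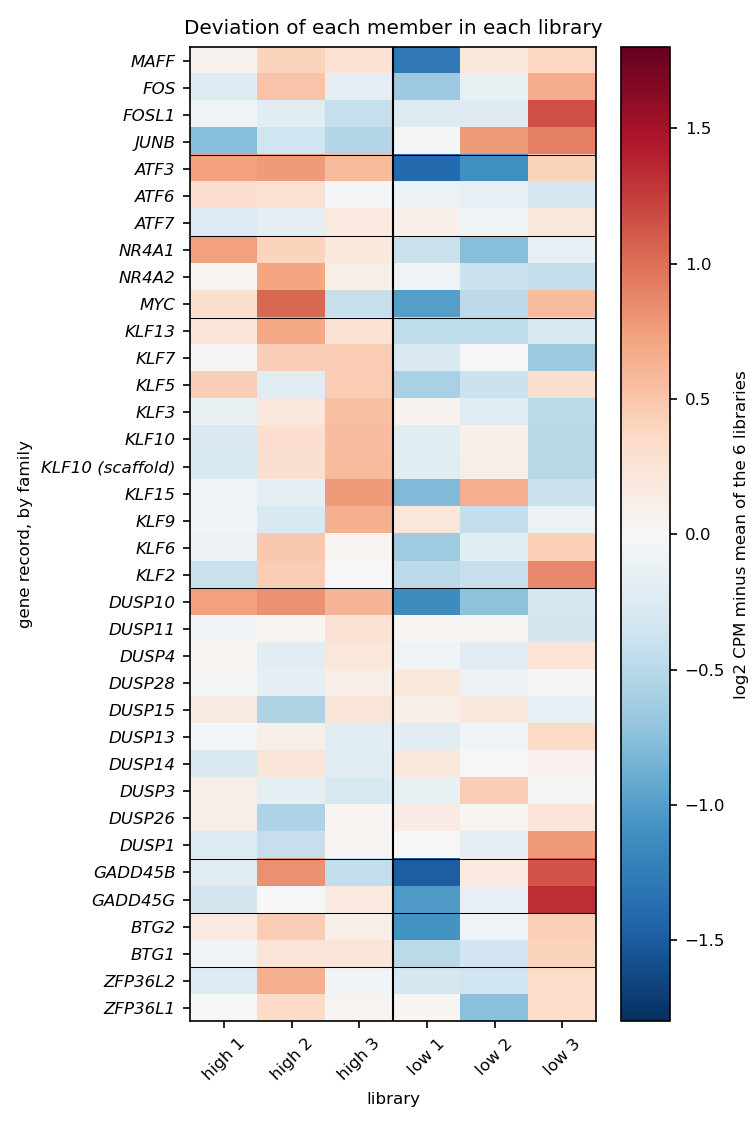
Colour gives log2 CPM minus the mean of the 6 libraries for each member (rows, by family) in each library (columns, high libraries left of the line). MAFF, ATF3, MYC, DUSP10, GADD45B, GADD45G and BTG2 are low in low library 1, while FOSL1, GADD45B and GADD45G are highest in low library 3.

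Counts of 3 members may include reads of a neighbour. The ATF7 record (chromosome 5, 19169483 to 19285220, minus strand) contains ATP5G2, a subunit gene of ATP synthase on the plus strand, and its counts were 1.03 to 1.08 times those of ATP5G2 in every library. The DUSP15 record (chromosome 17, 40338462 to 40456280, plus strand) contains MYLK2, the skeletal muscle myosin light chain kinase on the minus strand. Its counts were 1.31 to 1.37 times those of MYLK2. DUSP14 overlaps TADA2A on the other strand, with 0.285 to 0.506 times its counts. No source used here gives the strand setting of the counter, and reads of such pairs cannot be told apart without it. DUSP15 stood at 548, 337 and 576 CPM in the high and 528, 563 and 442 CPM in the low libraries, so that the groups overlapped (487 ± 131 against 511 ± 62.4 CPM). Its log2 fold change was -0.07 (SE 0.23, adjusted p = 0.887). ATF7 and DUSP14 had -0.15 and -0.17, and leaving the 3 records and the scaffold copy of KLF10 out moved the member median from 0.23 to 0.24.

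**Figure D4:**
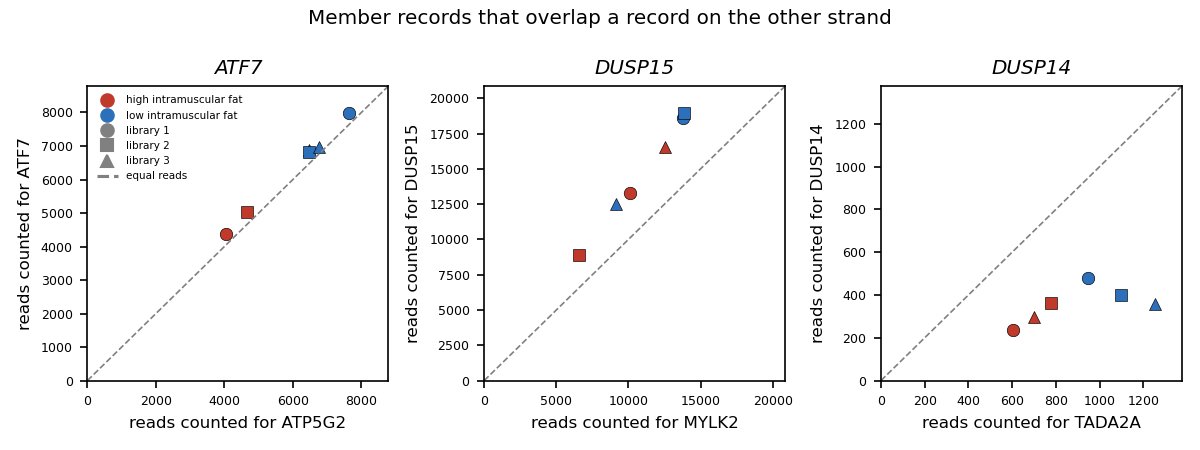
Reads counted for ATF7, DUSP15 and DUSP14 in each library against those of the record that overlaps each on the other strand; colours are the groups, marker shapes the library numbers and the dashed line marks equal reads. ATF7 follows the line of ATP5G2 at 1.03 to 1.08 times its reads and DUSP15 lies at 1.31 to 1.37 times those of MYLK2, while DUSP14 lies at 0.285 to 0.506 times those of TADA2A.

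The kinases and factors that signal to these genes had no record past the threshold in the quasi-likelihood test. Of 13 records of the ERK cascade and serum response inputs 0 passed the threshold and the median was 0.02. Stress kinases had 0 of 12 past it and a median of 0.06, and genes of the integrated and unfolded protein stress responses 0 of 13 and -0.03. In the list of other early response genes 0 of 24 passed. Higher records numbered 9 and lower ones 15, and the median was -0.08. The lower ones include CEBPD and also KIAA0146, named SPIDR in the Ensembl name table. KIAA0146 entered through a RefSeq match to CEBPD, and its span contains the CEBPD record. Within it CTGF, a matricellular target of serum response factor, stood at 192, 168 and 147 against 106, 103 and 87.0 CPM (0.78, SE 0.15, adjusted p = 0.1002). TIPARP, an ADP-ribosyltransferase, stood at 60.3, 60.7 and 57.5 against 21.4, 28.4 and 40.04 CPM (0.99, SE 0.22, adjusted p = 0.112). In both genes the groups were apart. CEBPB, a leucine zipper factor that can pair with ATF proteins, has 2 records with nearly equal values. The first stood at 70.0, 70.5 and 80.9 against 119, 115 and 139 CPM and the second at 66.8, 67.4 and 77.2 against 113, 109 and 132 CPM, both without overlap (-0.75 and -0.74, SE 0.13 each, adjusted p = 0.0921 in both). Glucocorticoid response genes had 7 of 11 records higher, a median of 0.40 and 0 past the threshold. The 4 lower records again include both CEBPD and KIAA0146. ZBTB16, a zinc finger gene that glucocorticoids induce, stood at 30.9, 27.8 and 35.3 against 23.6, 20.4 and 15.9 CPM, without overlap of the groups (0.65, SE 0.18, adjusted p = 0.15). At an unadjusted p under 0.05 stood 1 ERK cascade record, 3 stress kinase records, 1 record of the unfolded protein and integrated stress list, 7 other early response records and 2 glucocorticoid response records, of 13, 12, 13, 24 and 11, where 18.5% of all records did. DESeq2 called 4 of the other early response records (CTGF, TIPARP and both of CEBPB, which can hold reads of the same gene) and 1 glucocorticoid response record (ZBTB16), where it called 6.77% of all records, and edgeR's exact test called those 4 early response records and TRIB1, where it called 4.12%. Both tools called 0 in the ERK, stress kinase and unfolded protein lists, and limma-voom called 0 in every one of the 5.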

How the data were processed

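Per the labels' protocols, TRIzol RNA of fresh longissimus dorsi was made into Illumina TruSeq libraries. The tools named are TopHat2 2.0.4, BWA 0.6.2 (with no stated role), Trimmomatic 0.22 and FastQC 0.10.1, per the submitters' processing notes. No source used here gives the read counter, genome build or annotation; coordinates were taken as deposited. The authors deposited raw read counts and CPM per gene record, per the file headers. CPM gave back 1 whole-number library total per library, used here as library size. The authors' deposited log2 fold changes run low over high and were turned around, and their p-values and false discovery rates are given as deposited. Their test is not given in these sources; edgeR's exact test on the counts gave the same p-values to within 0.000105 on the log10 scale.

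The whole table of 7661 records was fitted with edgeR 4.0.16 (R 4.3.3): TMM factors, filterByExpr (which kept all records), quasi-likelihood F-test of high against low without covariates, Benjamini-Hochberg adjustment, threshold 0.05. Adjusted p-values are from that fit unless another tool is named. SE was taken as the size of the log2 fold change over root F. The fits were tested on simulated data. Levels are mean ± SD over 3 libraries. The alternatives used DESeq2 1.42.0 and limma 3.58.1 as well. An exact permutation test of 3 against 3 libraries cannot go below p = 0.1 and was not used. Members and lists were chosen with earlier results of these data known. The text gives in full the members with an unadjusted p under 0.05, with groups that do not overlap, among the 5 highest mean CPM, or with over 40% of their sum in 1 library (0 members), and pathway genes with an unadjusted p under 0.01, at most 4 per list. The other members are given by value or range. Deposited symbols of 33 members matched the Ensembl or RefSeq (Sscrofa11.1) name table. Promoter motifs were planned, but sequence was not used here.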

Additional observations from a re-analysis of the deposited data

How the results depend on the processing

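The count of 0 members past the threshold was 4 in DESeq2 and 4 in edgeR's exact test, 1 at a threshold of 0.1 (DUSP10) and 0 to 2 with each library left out (JUNB without low library 1, ATF3 and DUSP10 without low library 3). The 11 records called in the whole table became 518 under DESeq2, 316 under the exact test, 77 at a threshold of 0.1 and 2 under the replicate block. They ranged from 1 to 30 when single libraries were dropped (30 without low library 1, 1 without low library 2). With the replicate number as a block 0 members passed. The numbers share no stated animal or day, and deviations of same-numbered libraries correlated at 0.120, 0.029 and -0.084, so they were not taken as pairs; high library 2 deviated more with low library 3 (0.146). DESeq2 or upper-quartile factors in edgeR, library sizes from the listed genes, fitting with no filter, keeping records of mean CPM 20 or more (30 members left), limma-voom and removal of the span trend kept the count of 0 and left the whole-table count between 8 and 11. Of 570 fold changes recomputed for single members, 11 passed the threshold where the value given did not. The direction of those 11 was that of the value given. Directions of other values were less stable. With 1 library left out the sign changed for FOS, FOSL1, MAFF, DUSP4, DUSP13, DUSP15, DUSP28, GADD45B, GADD45G, KLF2, KLF9, KLF15, ZFP36L1 and ZFP36L2. All alternatives were planned. Counts limit precision little here, since the lowest member count is 179 reads, while 3 libraries per group do.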
